A study of Mus musculus with 62 samples.

Results

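HT-22 is a mouse hippocampal cell line, and the data described here compare its long RNA after exposure to the amyloid beta 42 peptide (Aβ42) or to a control peptide with the same amino acids in reverse order, in cells that had first received a scramble locked nucleic acid oligonucleotide (LNA). The libraries were chosen by their labels alone, as all long-RNA libraries of HT-22 cells with the scramble LNA. There were 8 of them among the 62 libraries of the series, 4 with Aβ42 and 4 with the reverse peptide. All 8 came from wells of 200000 cells at passage 4, given the scramble LNA for 24 h at 50 uM, as the labels state it, and then 30 uM of peptide dissolved in DMSO. The other 6 long-RNA libraries of this cell line, 3 with each peptide, received an LNA against Hsf1 at 150 nM in place of the scramble LNA and were used only for the comparison at the end. Library preparation included fragmentation and removal of ribosomal RNA. The labels do not say that replicates were separate cultures, so the p-values measure the spread between these libraries, which may be technical.

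Aβ42 is cut from the amyloid precursor protein by beta- and gamma-secretase, aggregates, and is the main component of the plaques of Alzheimer's disease. Applied to cultured neurons or neuronal lines it is known as a stress, and the transcripts usually followed in such cells are immediate-early genes, which are induced within minutes of a stimulus, chaperones, and genes of the unfolded protein and integrated stress responses. Hsf1, the gene targeted in the other libraries, encodes the transcription factor that drives heat shock genes.

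Levels are given as TPM (transcript abundance corrected for gene length and set to a fixed sum per library) divided by a scaling factor per library, called scaled TPM, and differences as Aβ42 minus reverse peptide on log2(scaled TPM + 1) (a scale that compresses differences of weakly expressed genes). Of the 53975 gene identifiers, 17496 had a mean TPM of at least 1 and were tested. The number of reads per gene is not given by these units. Relative sequencing depth, read from the ratio of coverage to FPKM, was 0.724, 0.815, 1.635 and 1.203 in Aβ42 replicates 1 to 4 and 1.214, 0.919, 0.81 and 2.599 in reverse replicates 1 to 4. Protein-coding genes held 51.71% to 61.8% of TPM with Aβ42 and 48.1% to 55.67% with the reverse peptide.

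The 8 libraries did not fall together by peptide. Aβ42 replicates 3 and 4 and reverse replicate 4 stood apart from the other 5, with Pearson correlations across genes of 0.9681 to 0.972 among the 3, of 0.9474 to 0.9591 among the 5 and of 0.9092 to 0.9346 between them. Genes are not independent replicates, so these values are a description. The relative depth of the 3 was 1.635, 1.203 and 2.599, against 0.724 to 1.214 in the other 5, and its part in the results below was not tested. Because 2 of the 3 carry one peptide and 1 the other, each result below is given with all 8 libraries and, where it matters, with the 5 alone (2 with Aβ42 and 3 with the reverse peptide), a choice made after the data were seen.

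The cell line's label was checked against marker genes. Of 10 neuronal markers, Tubb3 alone had a mean TPM of at least 1, and Rbfox3, Snap25, Syt1, Nefl, Nefm and Gap43 were listed at 0 in all 8 libraries. None of 6 markers of hippocampal glutamatergic neurons reached that level. Of 8 fibroblast or mesenchymal markers, 7 did (Col1a1, Col1a2, Vim, Fn1, Pdgfrb, Dcn and Thy1), with a summed level of 3576 to 6322 scaled TPM with Aβ42 and 3458 to 5663 with the reverse peptide. The astrocyte list had 2 of 7 markers at that level (Slc1a3 and Gja1) and the microglia list 2 of 8, while P2ry12, C1qa and Tyrobp were listed at 0. No marker of oligodendrocytes or endothelial cells reached it. By these markers the cells expressed a mesenchymal set of genes and hardly any neuronal ones, under both peptides. In bulk RNA, fewer cells of a type and less RNA per cell cannot be told apart.

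No gene differed between Aβ42 and the reverse peptide by limma's moderated test with Benjamini-Hochberg adjustment at 0.05. The call rate was 0% of 17496 genes, and the smallest adjusted p was 1.00. At an unadjusted p below 0.05 there were 650 genes, 3.72% of those tested. All 4 Aβ42 libraries lay above all 4 reverse libraries for 162 genes (0.926%) and below them for 250 genes (1.43%). Among the 11174 protein-coding genes the same counts were 122 higher (1.09%) and 128 lower (1.15%). The median standard error of a gene's log2 difference was 0.241, and 290 genes had an absolute difference above 1.

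**Figure D1:**
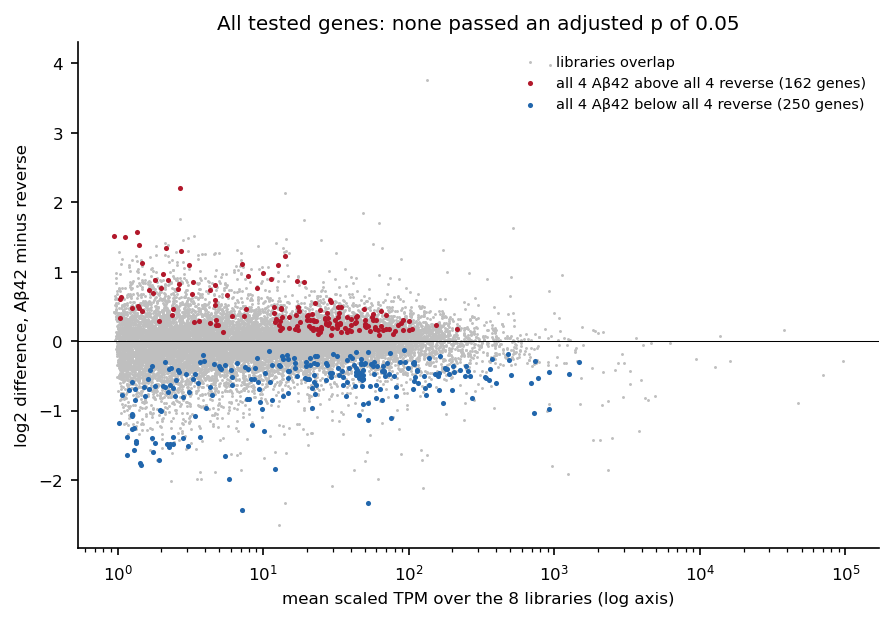
Log2 difference (Aβ42 minus reverse peptide, vertical axis) against mean scaled TPM over the 8 libraries (horizontal log axis) for the 17496 tested genes. Grey points are genes whose libraries overlap, red points the 162 genes higher in all 4 Aβ42 libraries and blue points the 250 lower in all 4; none passed the adjusted test.

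Cstb (GRCm38 chromosome 10, 78425669 to 78427622, plus strand) encodes cystatin B, an inhibitor of lysosomal cysteine proteases, and had the smallest p of the named genes lower with Aβ42. It was at 86.9, 86.4, 98.8 and 95.8 scaled TPM with Aβ42 and 151, 125, 125 and 158 with the reverse peptide. The means were 92.0 ± 6.29 and 140 ± 17.3 (SD, n = 4 each), a log2 difference of -0.59 with a 95% interval of -0.87 to -0.32, and limma's p was 0.000871 before adjustment. The groups did not overlap, and leaving out the 3 libraries that stood apart gave -0.62.

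Dad1, a subunit of the oligosaccharyltransferase that adds N-glycans in the endoplasmic reticulum, was at 34.3, 43.4, 36.4 and 40.4 with Aβ42 and 62.4, 56.7, 50.3 and 58.4 with the reverse peptide (log2 difference -0.55, standard error 0.12). Ndufa3, a subunit of respiratory complex I, was at 35.9, 36.9, 36.9 and 33.0 against 58.4, 84.7, 46.9 and 84.6 (-0.88, standard error 0.19). For Ndufa3 the 4 Aβ42 libraries ranged from 33.0 to 36.9 and the reverse libraries from 46.9 to 84.7. Ndufa3 shares exon sequence positions with Tfpt, so reads of the 2 genes can be mixed.

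Atpif1, the inhibitory factor of mitochondrial ATP synthase, was at 61.0, 69.4, 56.8 and 61.8 with Aβ42 and 107, 129, 80.9 and 84.4 with the reverse peptide. Nedd8, a ubiquitin-like modifier that activates cullin ligases, was at 43.1, 41.6, 41.3 and 40.5 against 53.5, 56.7, 61.6 and 51.0. Sub1, a transcriptional coactivator that binds single-stranded DNA, was at 31.8, 27.8, 28.6 and 29.5 against 39.2, 41.4, 36.5 and 42.1. These 3 differences were -0.66, -0.41 and -0.42, and in each the highest Aβ42 library lay below the lowest reverse library. Atpif1 overlaps Gm12999 and Nedd8 overlaps Gmpr2. The remaining genes of this group were Polr2j, a subunit of RNA polymerase II (40.3 ± 2.99 against 56.9 ± 7.02), Chpt1, which makes phosphatidylcholine (16.8 ± 4.23 against 28.5 ± 1.71), D8Ertd738e (65.9 ± 7.83 against 93.7 ± 8.84), Prr13 (39.2 ± 5.61 against 57.5 ± 7.31), Frg1 (24.9 ± 2.69 against 34.5 ± 2.50) and Dynlt1b, means ± SD of 4 libraries each. Chpt1 overlaps Sycp3 and Polr2j overlaps Lrwd1.

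Among the 12 named genes higher with Aβ42, Rps6kb2, a kinase of ribosomal protein S6 downstream of mTORC1, was at 23.9, 28.3, 30.0 and 27.2 with Aβ42 and 20.05, 15.8, 18.1 and 19.5 with the reverse peptide (log2 difference 0.55, 95% interval 0.26 to 0.84). Nprl3, a subunit of the GATOR1 complex that restrains mTORC1 when amino acids are scarce, was at 33.7, 38.3, 38.4 and 44.1 against 22.3, 27.4, 30.7 and 28.7 (0.49, interval 0.18 to 0.80). In neither gene did the groups overlap. Both sit over other genes, Rps6kb2 over Coro1b and Ptprcap and Nprl3 over Mpg.

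Gcc2, a golgin of the trans-Golgi network, was at 37.2, 30.5, 37.7 and 34.2 with Aβ42 and 23.6, 26.9, 24.3 and 18.3 with the reverse peptide (0.57). Mesd, a chaperone needed to fold LRP receptors, was at 24.9, 25.7, 15.1 and 35.2 against 14.2, 12.2, 12.8 and 12.5 (0.86). Its reverse libraries were nearly equal while its Aβ42 libraries ranged widely, and it overlaps Gm49493. Klhl26 averaged 17.3 ± 3.55 against 7.84 ± 2.95, the kinase gene Mast4 57.1 ± 3.19 against 41.3 ± 6.18, the complex I assembly factor Ndufaf6 11.5 ± 1.10 against 6.54 ± 2.03, the N-glycan glucosyltransferase Alg8 15.6 ± 2.17 against 11.004 ± 0.618, and Ufd1, a cofactor of the segregase that extracts ubiquitinated proteins, 66.2 ± 2.06 against 53.4 ± 3.33. Mast4 overlaps 1700099I09Rik and Cd180, and Ufd1 overlaps Cdc45.

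**Figure D2:**
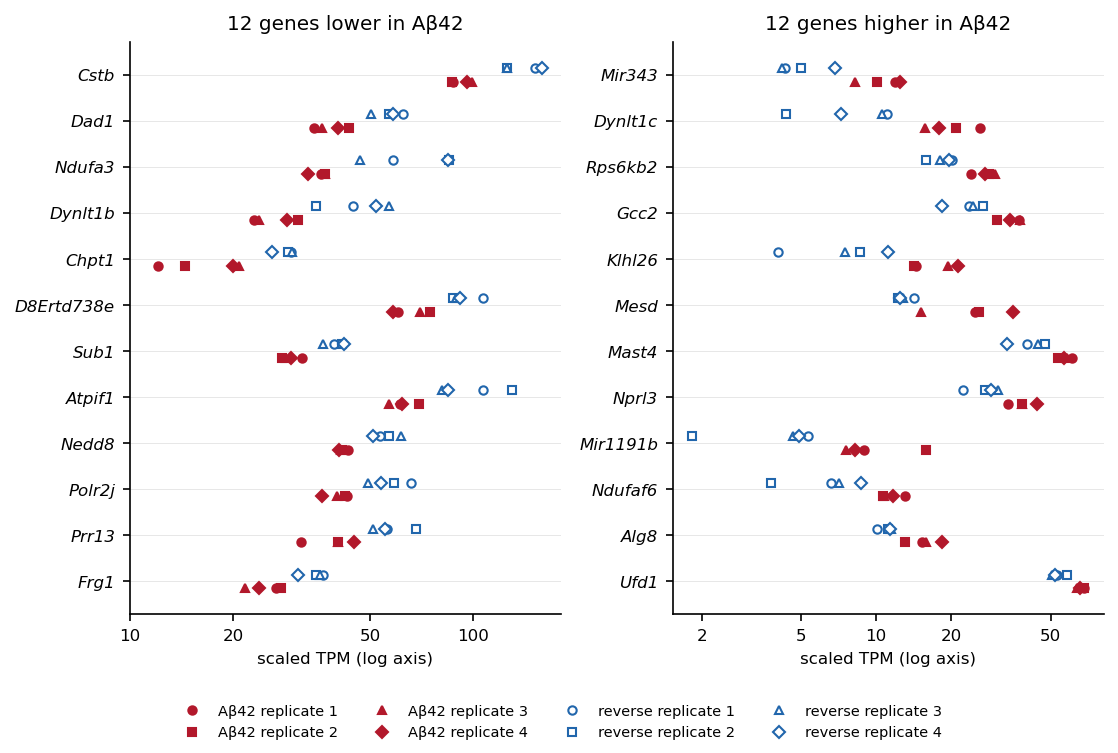
Scaled TPM (log axes) of the 12 genes lower (left) and the 12 higher (right) with Aβ42 that had the smallest unadjusted p among genes whose libraries do not overlap; each symbol is 1 library, filled red for Aβ42 and open blue for the reverse peptide, with the replicate number given by shape. Red and blue symbols separate in every row by the way genes were chosen, and no gene passed the adjusted test.

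One pair in these groups, Dynlt1b and Dynlt1c, are near-identical copies of a dynein light chain gene on chromosome 17, and the 2 copies went opposite ways. Dynlt1b (6430112 to 6436296) was at 23.0, 30.9, 23.8 and 28.6 with Aβ42 and 44.7, 34.9, 56.7 and 52.0 with the reverse peptide, whereas Dynlt1c (6601671 to 6609774) was at 26.0, 20.8, 15.7 and 17.9 against 11.02, 4.36, 10.6 and 7.22. The sum of the 4 copies Dynlt1a, Dynlt1b, Dynlt1c and Dynlt1f was 55.9, 57.7, 44.4 and 52.0 with Aβ42 and 62.3, 46.4, 75.1 and 65.9 with the reverse peptide, so the groups overlapped once the copies were added. How reads were divided among such copies is not stated in these sources, which makes the single-copy values uncertain.

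Also among the genes without overlap were 3 short genes annotated as miRNA hairpins, each higher in all 4 Aβ42 libraries. Of 530 tested genes annotated as miRNA, 6 (1.13%) lay higher without overlap and 10 (1.89%) lower, near the 0.926% and 1.43% of all genes tested. The mature sequences listed for these 3 hairpins by RefSeq on GRCm38.p6 are shown to identify RNAs they could give rise to, with the seed (bases 2 to 8) in capitals. For Mir185 only miR-185-3p was listed, so a product of the other arm of that hairpin is not shown. No 2 of the sequences printed share a seed.
miR-343: uCUCCCUUcaugugcccaga
miR-1191b-5p: uCAGGCUAcagagcgagaaccu
miR-1191b-3p: aGACUCACuauguagcccaagc
miR-185-3p: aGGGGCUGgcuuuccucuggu

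Mir343 (chromosome 7, 19386643 to 19386717, plus strand) was at 11.9, 10.0, 8.21 and 12.4 scaled TPM with Aβ42 and 4.30, 4.98, 4.19 and 6.82 with the reverse peptide. It lies within exon sequence of Ercc2, and reads from the 2 genes cannot be told apart. Mir1191b (chromosome 10, 81416240 to 81416297, minus strand) was at 8.90, 15.8, 7.58 and 8.197 against 5.32, 1.84, 4.62 and 4.92. Mir185 (chromosome 16, 18327401 to 18327465, minus strand) had the smallest p of all genes, 0.000132 unadjusted by limma, with 2.04, 1.45, 2.33 and 1.74 with Aβ42 and a listed value of 0 in all 4 reverse libraries. It is named because of that rank, since its level is under the minimum of 5 set for named genes. With 0 in all 4 reverse libraries, Mir185 reached the minimum mean TPM of 1 only through the Aβ42 libraries. The filter thus favoured such a difference at this level, and the rank is no support for it.

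The depth behind these hairpins was small. The deposited mean coverage over Mir185 was 0.8, 0.615, 1.846 and 1.0 reads in the Aβ42 libraries, and over Mir343 it was 4.657, 4.267, 6.5 and 7.139 with Aβ42 and 2.703, 2.244, 1.797 and 8.345 with the reverse peptide. Long-RNA libraries also hold primary transcripts, so a level here is that of any RNA over the hairpin and not of the mature miRNA. In the libraries with the LNA against Hsf1, scaled over all 14 libraries, Mir185 was at 0, 1.81 and 4.57 with Aβ42 and 1.66, 1.37 and 2.97 with the reverse peptide, so it was not at 0 in the reverse libraries there.

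Immediate-early genes, which encode the AP-1 factors and the Egr, Nr4a, Ier and Klf families, differed widely between libraries of the same peptide. Fos was at 3.49, 2.83, 40.5 and 73.5 scaled TPM with Aβ42 and 3.96, 2.89, 7.52 and 43.1 with the reverse peptide. Fosb was at 3.32, 3.801, 96.1 and 111 against 4.50, 4.66, 5.61 and 60.8. Junb was at 16.1, 25.04, 250.3 and 260.02 against 27.4, 19.97, 23.6 and 303. The high libraries were Aβ42 replicates 3 and 4 and reverse replicate 4 in each case, and the groups overlapped.

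The orphan nuclear receptor gene Nr4a1 was at 1.05, 1.82, 225 and 246 with Aβ42 and 3.02, 2.15, 3.13 and 230 with the reverse peptide. Egr1, a zinc finger factor, was at 26.8, 27.4, 238 and 262 against 34.9, 42.8, 28.4 and 356, and Ier3, a survival gene, at 23.6, 24.8, 263 and 288 against 34.1, 35.7, 41.6 and 353. For Egr1 and Ier3 the highest of all 8 libraries was reverse replicate 4. The log2 difference of Nr4a1 was 1.19 with a 95% interval of -3.27 to 5.64, and with the 5 libraries alone it was -0.63.

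Over the 7 tested AP-1 genes the median difference was 0.68, with 6 above 0, and over the 16 genes of the Egr, Nr4a, Ier and Klf list it was 0.40, with all 16 above 0. None of the 23 passed the test, was under an unadjusted p of 0.05 or had groups that did not overlap. With the 5 libraries alone the medians were -0.23 and -0.30, with 0 genes above 0 in either list. Egr3 and Nr4a3 were under the minimum level in that fit, so the second median there is over 14 genes. The sign of both lists therefore turned when the 3 libraries were left out, and the median over all genes tested was 0.00 in both fits.

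MAP kinase feedback genes behaved alike. Dusp5, a nuclear phosphatase of ERK, was at 3.48, 2.68, 148 and 159 with Aβ42 and 2.95, 2.21, 3.82 and 133 with the reverse peptide, and Dusp4 at 1.65, 2.16, 31.4 and 41.9 against 2.73, 1.80, 2.55 and 27.0. Over 13 tested genes the median difference was 0.31 with all libraries and -0.22 with the 5, where Spry4 was under the minimum level, and none passed the test.

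Targets of the serum response factor (SRF) and of YAP, which include matricellular and cytoskeletal genes, differed between the same libraries. Ccn1, listed as Cyr61, was at 124, 150, 2025 and 2147 scaled TPM with Aβ42 and 179, 154, 162 and 2432 with the reverse peptide, and Ccn2, listed as Ctgf, at 23.0, 33.3, 889 and 900 against 41.4, 35.8, 41.9 and 810. Thbs1, which encodes thrombospondin, was at 180, 199, 2842 and 2997 against 214, 200, 243 and 2114. All 3 were high in the same 3 libraries, and Thbs1 and Ctgf overlap the gene models Gm29233 and Gm15270. Over the 15 tested genes of this list the median difference was 0.48 with all libraries and -0.19 with the 5, where Actg2 was under the minimum level. None of the 6 libraries with the LNA against Hsf1 was high in Dusp5, at 2.99, 4.09 and 3.95 there with Aβ42 and 2.71, 1.79 and 3.54 with the reverse peptide, scaled over all 14 libraries.

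**Figure D3:**
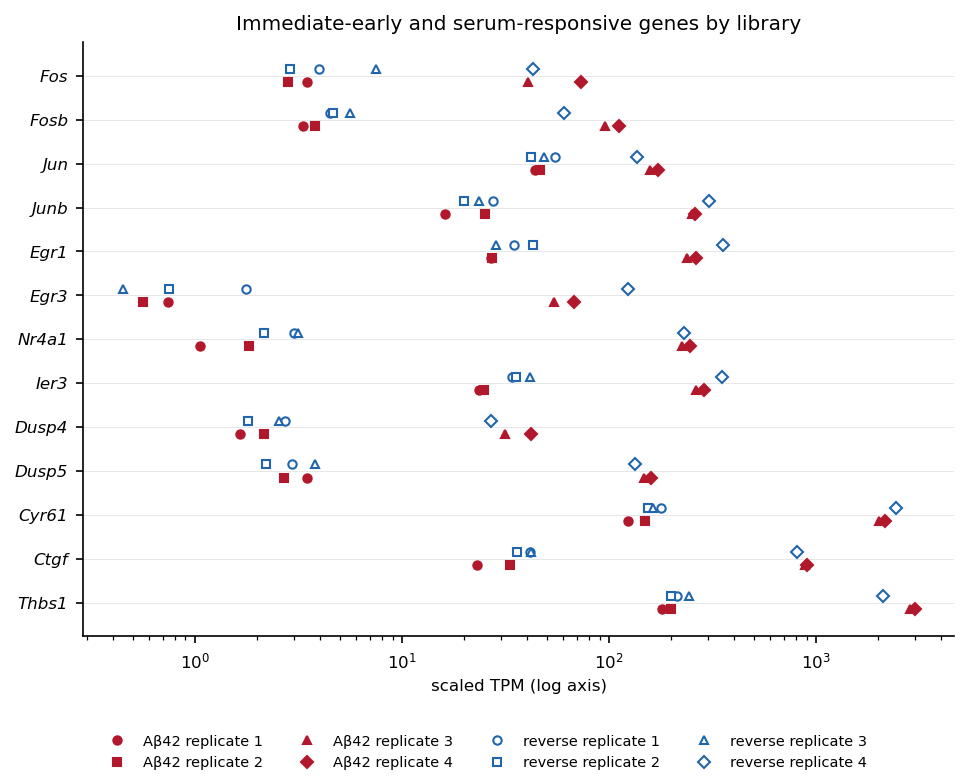
Scaled TPM (log axis) of 13 immediate-early, MAP kinase feedback and SRF or YAP target genes; each symbol is 1 library, filled red for Aβ42 and open blue for the reverse peptide, with the replicate number given by shape. In every row Aβ42 replicates 3 and 4 and reverse replicate 4 lie together at the high end, as for Dusp5 at 148, 159 and 133, and the other 5 libraries at the low end.

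The 250 bases before the start of 2 of these genes are printed, each with a motif that it holds in capitals. Both genes were far higher in the same 3 libraries, but so were others that are not printed, such as Junb and Thbs1. The printed genes are thus examples and do not stand for the lists. The sequences come from RefSeq on GRCm38.p6. Dusp5 (chr19:53528895-53529144, plus strand) holds 2 CArG boxes, the SRF binding sequence, which begin 82 and 72 bases before the start and abut each other. Ccn1 (chr3:145649986-145650235, minus strand) holds GGAATG, the core of the sequence bound by the TEAD partners of YAP, once, on the opposite strand, 103 bases before the start.
Dusp5: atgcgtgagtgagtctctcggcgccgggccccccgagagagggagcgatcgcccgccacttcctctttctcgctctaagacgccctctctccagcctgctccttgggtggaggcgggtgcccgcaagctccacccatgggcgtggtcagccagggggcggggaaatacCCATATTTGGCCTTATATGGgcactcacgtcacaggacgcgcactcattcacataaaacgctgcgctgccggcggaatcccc
Ccn1: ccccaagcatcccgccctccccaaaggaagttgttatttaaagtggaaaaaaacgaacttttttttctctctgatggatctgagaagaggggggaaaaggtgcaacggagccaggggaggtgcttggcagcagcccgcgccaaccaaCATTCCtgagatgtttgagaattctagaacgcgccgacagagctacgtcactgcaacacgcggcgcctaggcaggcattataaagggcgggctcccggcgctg

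Motifs were searched on both strands in the same window of 32851 promoters. A CArG box was in 1.47% of them, GGAATG in 12.6% and the cyclic AMP response element TGACGTCA in 1.55%. Among the SRF and YAP targets, 11 had a promoter in the table, GGAATG was in 8 (Acta2, Ajuba, Amotl2, Ankrd1, Axl, Ccn1, Tpm1 and Vcl) and a CArG box in 2 (Srf and Vcl). None of the 7 AP-1 genes with a promoter had any of the 3 motifs in this window. Egr2 and Dusp5 were the genes of the immediate-early and feedback lists with a CArG box, and TGACGTCA was in Btg2, Maff, Dusp1 and Dusp8. In these lists GGAATG was in Egr2, Nr4a1 and Nr4a3 of 12 immediate-early genes and in Spry1 of 12 feedback genes. A match is a description of the letters and not of binding, and the lack of one says only that these letters are not in this window.

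Genes of the integrated stress response driven by Atf4 followed the same libraries. Their list medians were 0.66, 0.72 and 0.815 in Aβ42 replicates 3 and 4 and reverse replicate 4, and -0.56 to -0.305 in the other 5. Sesn2, an inhibitor of mTORC1, was at 19.3, 22.7, 61.7 and 60.0 with Aβ42 and 18.6, 13.5, 15.7 and 59.6 with the reverse peptide, and Chac1, which degrades glutathione, at 11.6, 16.7, 103 and 112 against 16.0, 16.5, 16.8 and 105. Over 20 tested genes the median difference was 0.26, with 17 above 0, and with the 5 libraries it was -0.02, with 9 above 0. Aldh1l2, a mitochondrial folate enzyme, was the 1 gene of this list whose groups did not overlap, at 75.0, 82.6, 76.6 and 75.4 against 66.0, 72.2, 67.4 and 68.2 (log2 difference 0.17). It made up 5% of the list, where 0.926% of all genes tested lay higher without overlap. A single gene is not a result about the list.

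Nrf2 targets had a median difference of 0.16 over 20 genes (-0.01 with the 5 libraries). Hmox1, heme oxygenase, was at 52.2, 52.96, 301 and 374 with Aβ42 and 67.0, 63.7, 53.4 and 400 with the reverse peptide. Fth1, the ferritin heavy chain, went the other way, at 1285, 1418, 1306 and 1294 against 1606, 1768, 1470 and 1717, with groups that did not overlap (log2 difference -0.30, -0.26 with the 5 libraries). It was the 1 such gene of the list (5%), where 1.43% of all genes tested lay lower without overlap. Targets of p53, among them Cdkn1a at 45.1, 47.5, 146 and 139 against 47.2, 38.3, 45.1 and 158, had a median of 0.11 over 18 genes and of -0.02 with the 5 libraries.

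The NF-kB, cytokine and chemokine list had a median of 0.18 over 14 tested genes, and of -0.27 with the 5 libraries, where 9 of the 14 were below 0. Tnfaip3, a negative regulator of NF-kB, was at 2.78, 3.48, 15.5 and 20.04 with Aβ42 and 2.31, 3.05, 3.68 and 5.36 with the reverse peptide (log2 difference 0.97, 95% interval -0.30 to 2.24, and 0.05 with the 5 libraries). Here reverse replicate 4 stayed near the other reverse libraries while Aβ42 replicates 3 and 4 were high. Interferon-stimulated genes leaned the opposite way by library, with list medians of -0.23, -0.43 and -0.28 in Aβ42 replicates 3 and 4 and reverse replicate 4 and 0.11 to 0.36 in the other 5. Their median difference between peptides was 0.02 over 14 genes.

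Cytosolic chaperones of the heat shock response showed hardly any difference. The median over 19 tested genes was 0.00, with a range from -0.27 to 0.19 and 10 genes above 0, and no gene reached an unadjusted p of 0.05. Hspa1a, the inducible Hsp70, was at 10.1, 14.6, 7.68 and 6.94 with Aβ42 and 14.4, 8.14, 13.8 and 4.63 with the reverse peptide, and Hsf1 itself at 53.9, 68.4, 70.3 and 78.3 against 58.6, 47.6, 68.1 and 62.4. The log2 difference of Hsf1 was 0.19 with a 95% interval of -0.16 to 0.54. Endoplasmic reticulum chaperones and genes of the unfolded protein response had a median of 0.04 over 20 genes, with Herpud1 at 66.1 ± 28.2 against 52.4 ± 29.0 and Hyou1 at 66.9 ± 8.82 against 56.9 ± 8.39 (mean ± SD, n = 4 each).

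App, the precursor of the peptide, was at 96.9, 150, 128 and 129 scaled TPM with Aβ42 and 86.6, 128, 122 and 85.0 with the reverse peptide. The difference was 0.26 with a 95% interval of -0.16 to 0.69. Over 16 tested genes of App processing and amyloid handling the median was 0.07, from -0.38 for the App adaptor gene Apbb1 to 0.34 for the presenilin gene Psen2, and 0 genes were under an unadjusted p of 0.05. Tau, microtubule and tau kinase genes had a median of 0.04 over 14 genes, with Cdk5r1, the activator of the tau kinase Cdk5, at 0.30 and the kinase gene Mark1 at 0.23. The tau gene Mapt itself was under the minimum level.

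Cholesterol synthesis and uptake genes were one list whose median kept its sign when the 3 libraries that stood apart were left out. Other lists did so too, such as App processing (0.07, and 0.16 with the 5 libraries) and autophagy (0.02 and 0.04). The median of the cholesterol list was 0.17 over 22 tested genes, with 18 above 0, and 0.12 with the 5 libraries, again with 18 above 0. By library the medians were -0.07, 0.00, 0.21 and 0.23 with Aβ42 and -0.22, -0.20, -0.09 and 0.15 with the reverse peptide. They were highest in the same 3 libraries, and the peptides overlapped. Of 3160 protein-coding genes of 3001 to 5000 exonic bases, 40.19% were below 0, and the median length in this list was 4504.5. Dhcr7, which makes cholesterol in the last step of the pathway, was at 30.6, 28.8, 41.5 and 35.4 with Aβ42 and 23.9, 21.6, 22.0 and 30.7 with the reverse peptide (log2 difference 0.46, 95% interval 0.09 to 0.82). Its groups overlapped through Aβ42 replicates 1 and 2 and reverse replicate 4. Apoe, the apolipoprotein that carries cholesterol between brain cells, was at 11.7, 7.76, 9.83 and 11.2 against 7.15, 5.15, 7.54 and 9.12 (0.44, interval -0.03 to 0.91).

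No gene of the remaining lists passed the test. Cell cycle and DNA replication genes had a median of 0.05 (25 genes), autophagy and lysosome genes 0.02 (21), apoptosis regulators -0.04 (16) and hypoxia and glycolysis genes 0.14 (19). Casp9, the initiator caspase of the mitochondrial pathway, was at 5.38, 3.83, 4.46 and 5.16 with Aβ42 and 5.49, 7.08, 6.52 and 5.72 with the reverse peptide, without overlap (log2 difference -0.34, 95% interval -0.75 to 0.08). It was the 1 such apoptosis regulator (6.25%), where 1.43% of all genes tested lay lower without overlap. Vegfa, at 13.1, 18.9, 134 and 145 against 14.8, 9.30, 14.9 and 153, and Ccnd1, at 9.86, 14.9, 85.6 and 85.1 against 10.6, 10.9, 16.8 and 78.5, followed the 3 libraries. Extracellular matrix genes had a median of 0.24 over 19 genes and 0.03 with the 5 libraries.

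**Figure D4:**
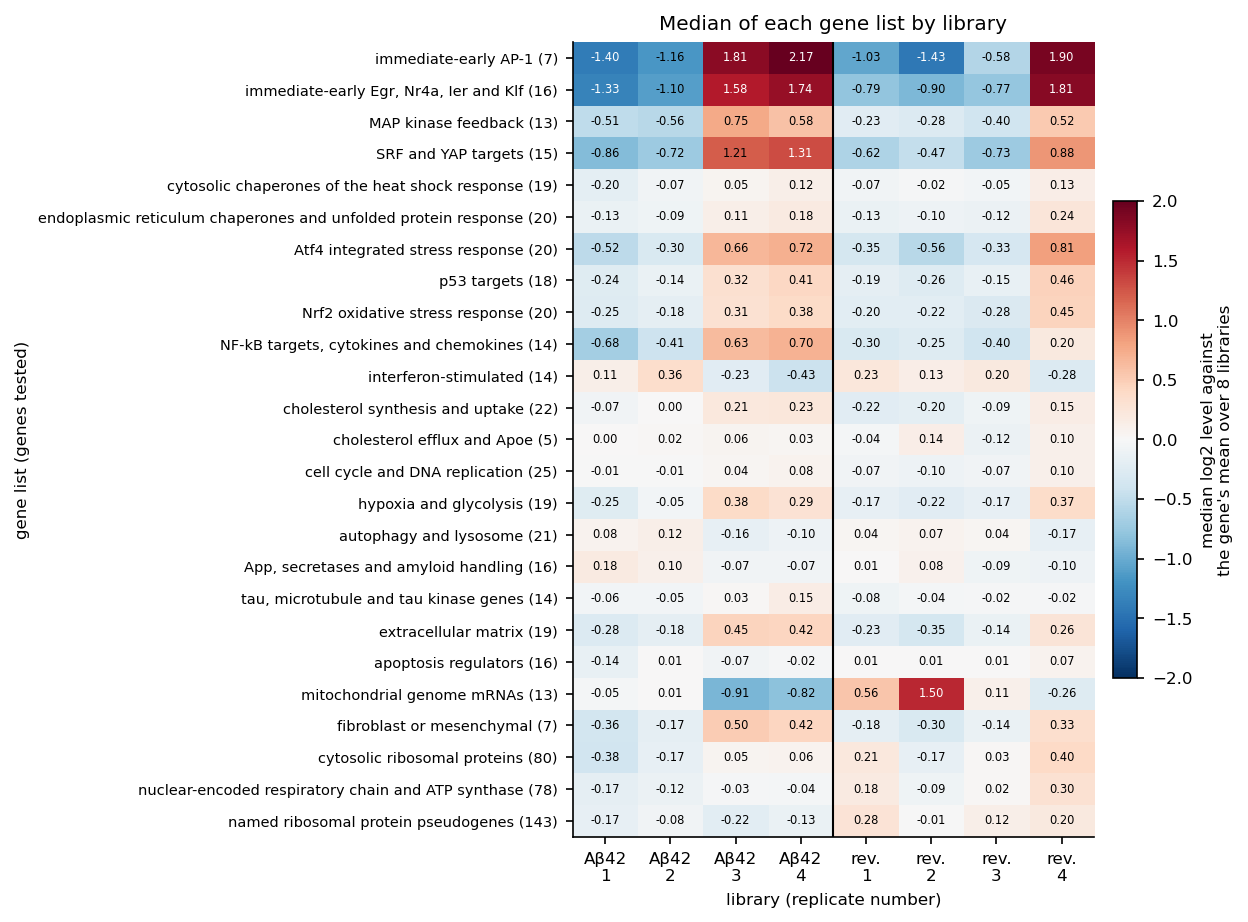
Median log2 level of each gene list (rows, with the number of tested genes) in each library (columns), relative to each gene's mean over the 8 libraries; red is higher and blue lower. The top 4 rows are red in Aβ42 replicates 3 and 4 and reverse replicate 4, with AP-1 medians of 1.81, 2.17 and 1.90, and the row of mitochondrial genome mRNAs is highest in reverse replicate 2, at 1.505.

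Messenger RNAs of the mitochondrial genome were the list with the largest median difference. All 13 had a log2 difference below 0, with a median of -0.92, 5 were under an unadjusted p of 0.05, and none passed the adjusted test or had groups that did not overlap. Of all genes tested, 8688 of 17496 were below 0 and 3.72% were under that p. The 13 were measured in the same 8 libraries and are not independent. By library the list medians were -0.05, 0.01, -0.91 and -0.82 with Aβ42 and 0.56, 1.505, 0.11 and -0.26 with the reverse peptide. Reverse replicate 4 thus lay below Aβ42 replicates 1 and 2. mt-Nd1, a subunit of complex I, was at 3965, 3936, 2111 and 2212 scaled TPM with Aβ42 and 5483, 9737, 4218 and 3376 with the reverse peptide. mt-Nd6 was at 644, 1053, 138 and 148 against 2193, 4369, 1166 and 247, and mt-Co1, a subunit of cytochrome oxidase, at 8878, 8054, 8043 and 8974 against 9057, 13760, 8326 and 10000. mt-Nd6 lies opposite mt-Nd5, and without strand the reads of the 2 cannot be told apart. Reverse replicate 2 was the highest library in each, and for mt-Nd6 the 3 libraries that stood apart were the lowest.

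The median of this list stayed below 0 with the 5 libraries (-0.73) and under other scalings (-0.58 to -0.96). Mitochondrial ribosomal RNA held 11.68%, 11.88%, 6.72% and 8.47% of TPM with Aβ42 and 12.57%, 19.98%, 11.6% and 10.35% with the reverse peptide. It was highest in the same reverse replicate 2 and lowest in the same Aβ42 replicates 3 and 4, and its part in the result was not tested.

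Nuclear genes for ribosomal proteins and for the respiratory chain more often had a difference below 0 than above it, and no member passed the test. These lists were chosen after the values had been seen. Of 80 tested cytosolic ribosomal protein genes, 72 had a difference below 0, the median was -0.24, and 5 (6.25%) lay lower in all 4 Aβ42 libraries against 0 higher, where 1.43% of all genes tested lay lower and 0.926% higher. Rps28 was at 232, 309, 270 and 297 with Aβ42 and 443, 393, 343 and 400 with the reverse peptide, and Rps20 at 82.7, 89.6, 94.5 and 96.8 against 114, 169, 117 and 125. With the 5 libraries the median was -0.29, with 74 below 0.

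Of 78 tested nuclear genes of the respiratory chain and ATP synthase, 59 had a difference below 0, with a median of -0.19, and 5 (6.41%) lay lower without overlap against 0 higher, beside the same 1.43% and 0.926% of all genes. Over all genes tested, 8688 of 17496 were below 0. Both lists hold short genes, with median exonic lengths of 1754.5 (ribosomal) and 1696.5 bases. Among all protein-coding genes of 1001 to 2000 bases, 64.7% were below 0 and 2.74% lay lower without overlap. In the class of 501 to 1000 bases these shares were 79.5% and 5.91%. The part of length in these lists was not tested. Cox8a, a subunit of cytochrome oxidase, was at 145, 185, 150 and 148 with Aβ42 and 252, 191, 223 and 208 with the reverse peptide, and Uqcr11, a subunit of complex III, at 24.6, 26.8, 38.4 and 43.7 against 78.6, 44.0, 51.8 and 79.2. By library the medians of both lists overlapped between peptides: for ribosomal protein genes they were -0.38, -0.17, 0.05 and 0.06 with Aβ42 and 0.21, -0.17, 0.03 and 0.40 with the reverse peptide. Reverse replicate 2 lay among the Aβ42 libraries.

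Pseudogenes copied from these messenger RNAs leaned the same way. Of 143 tested pseudogenes named after a ribosomal protein, 125 were below 0, with a median of -0.29, and over all 2009 tested processed pseudogenes 71 (3.53%) lay lower without overlap and 8 (0.398%) higher, against 1.43% and 0.926% of all genes. Reads of such copies and of their parent genes can be exchanged, so they are not separate measurements.

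Protein-coding genes were also grouped by length, with the ribosomal and respiratory chain genes included. Among protein-coding genes with up to 500 exonic bases the median difference was -0.32, and 80.9% of 68 genes were below 0. It was -0.24 for 254 genes of 501 to 1000 bases, -0.07 for 1206 genes of 1001 to 2000 bases, and 0.05 for 4823 genes of over 5000 bases. Genes lower without overlap numbered 15 (5.91%) and higher 0 in the class of 501 to 1000 bases, and 29 (0.601%) and 81 (1.68%) in the class over 5000 bases. Over all protein-coding genes tested the shares were 1.15% lower and 1.09% higher. With the 5 libraries the medians of the shortest and longest classes were -0.26 and 0.06.

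By library the shortest class had medians of -0.25, -0.02, -0.03 and -0.30 with Aβ42 and 0.57, -0.43, 0.38 and 0.28 with the reverse peptide, so reverse replicate 2 was the lowest of all 8. With TPM as deposited, where the median of all genes was 0.15, the classes of up to 500, 501 to 1000 and 1001 to 2000 bases were at -0.16, -0.08 and 0.07. The sign of the third class therefore depends on the scaling, and its place below the longer classes does not.

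**Figure D5:**
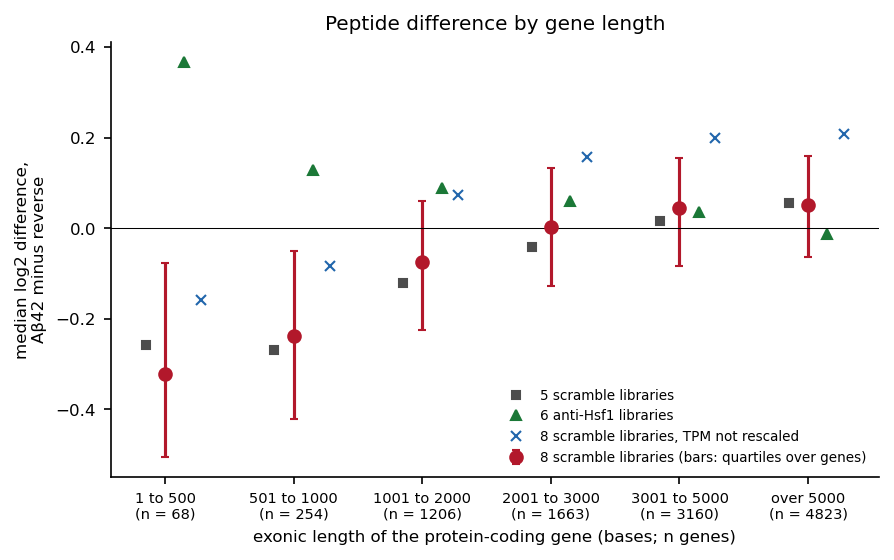
Median log2 difference (Aβ42 minus reverse peptide, vertical axis) of protein-coding genes by exonic length class (horizontal axis, with the number of genes), for the 8 scramble libraries with quartiles over genes as bars, for 5 of them, for TPM not rescaled and for the 6 libraries with the LNA against Hsf1. The scramble medians go from -0.32 in the shortest class to 0.05 in the longest, and the medians under the other LNA from 0.37 to -0.01.

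Whether the peptide difference was itself different under the LNA against Hsf1 was tested with an interaction term over all 14 libraries. Under that LNA protein-coding genes held 32.13%, 42.08% and 30.05% of TPM with Aβ42 and 52.14%, 50.86% and 48.73% with the reverse peptide. The short gene model Gm23935 held 27.76%, 15.46% and 44.27% of TPM against 11.46%, 11.05% and 10.03%. The part of this unlike composition in the values under that LNA and in the interaction was not tested. By limma with Benjamini-Hochberg adjustment 0% of 17291 genes passed at 0.05, the smallest adjusted p was 0.358, and 899 genes (5.2%) were under an unadjusted p of 0.05. The genes below were named for their difference under scramble, and the interaction uses those same scramble values. A smaller or opposite value under the other LNA was therefore favoured by the choice and is no support for a difference between the LNAs. Cstb, lower with Aβ42 under scramble by -0.59, had a difference of 0.22 under the LNA against Hsf1 (interaction -0.81). D8Ertd738e had -0.51 and 0.30, and Dad1 -0.55 and 0.21. Chpt1 (-0.76 and -0.63), Rps6kb2 (0.55 and 0.52), Mesd (0.86 and 0.84) and Mir343 (0.94 and 0.87) had similar values under both LNAs, and the interaction did not pass for any of them. Also above 0 under the LNA against Hsf1 were the lower genes Ndufa3 (0.14), Sub1 (0.29), Nedd8 (0.13), Polr2j (0.11), Prr13 (0.04) and Frg1 (0.06). The lower genes Dynlt1b (-0.43) and Atpif1 (-0.01) stayed below 0. Of the higher genes, Gcc2 (-0.07), Mast4 (-0.02), Ndufaf6 (-0.53) and Alg8 (-0.18) were below 0 there. Dynlt1c (0.10), Klhl26 (0.35), Nprl3 (0.12), Mir1191b (0.29) and Ufd1 (0.11) stayed above 0.

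Under the LNA against Hsf1 the median of the cytosolic ribosomal protein genes was 0.16, with 62 of 80 above 0, and that of the nuclear respiratory chain genes was 0.12, with 57 of 78 above 0. The shortest genes were at 0.37. Mitochondrial genome mRNAs stayed below 0 there, at -0.08 with 1 of 13 above 0. The difference between the LNAs was not tested for any list, and the ribosomal protein and respiratory chain lists were chosen after the values had been seen. The cholesterol list was at 0.10, with 18 of 22 above 0, as it was under scramble.

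A few short gene models annotated as miRNA had the largest interaction differences. Gm25911 was at 1.94, 10.6, 0.901 and 0.761 scaled TPM under scramble with Aβ42 and 24.2, 39.3, 23.3 and 1.65 with the reverse peptide, but at 476, 172 and 388 under the LNA against Hsf1 with Aβ42 and 8.02, 7.58 and 20.9 with the reverse peptide. Gm24187 and Gm24270 followed the same libraries. These 3 genes passed the interaction test when reverse replicate 4 was left out, and again, together with Praf2, when all 3 libraries that stood apart were left out. Gm23935, a model of 57 bases that alone held 5.37% to 13.01% of TPM in the 8 scramble libraries, had a difference of -0.28 under scramble and 1.89 under the LNA against Hsf1.

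With the 5 libraries alone, Praf2 and Snord2 were called between the peptides under scramble, and in both Aβ42 replicates 1 and 2 differed from all 6 other scramble libraries. Praf2, a membrane protein of vesicle traffic, was at 10.2, 8.99, 42.0 and 43.1 with Aβ42 and 38.3, 43.0, 39.7 and 49.4 with the reverse peptide (adjusted p = 0.0342 by limma with 5 libraries). It overlaps Gm45208, which was at 10.8 and 10.5 in Aβ42 replicates 1 and 2 and at 0 to 1.37 in the other 6, and the sum of the pair was 20.9 and 19.5 against 38.3 to 49.4. Snord2, a small nucleolar RNA within the Eif4a2 gene, was at 59.2, 45.2, 1.11 and 1.37 against 1.39, 1.96, 2.12 and 0.707 (adjusted p = 0.0174 by limma with 5 libraries). Under the LNA against Hsf1 it was high in 1 library of each peptide, at 40.7 with Aβ42 and 48.0 with the reverse peptide, and at 1.37 to 1.88 in the other 4.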

How the data were processed

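Long-RNA libraries of HT-22 cells were used, with 1 deposited gene abundance table each. The authors deposited coverage, FPKM and TPM for each gene, per the file headers. Per the submitters' processing notes, the tools named were FastQC, cutadapt 1.18, BWA 0.7.17, HISAT2 2.1.0, bedtools 2.26.0 and StringTie 1.3.4d, with builds mm10 and GRCm38 and no role given for each. Of 53975 gene identifiers, 53934 are in GENCODE M21, 98.3% with the same coordinates.

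TPM was summed per gene identifier, filtered at a mean of at least 1, divided by median-of-ratios factors (0.902 to 1.118), and tested as log2(value + 1) with limma 3.58.1 in R 4.3.3 (trend and robust moderation, Benjamini-Hochberg adjustment, threshold 0.05). No count test was run. Relative depth is the modal coverage-to-FPKM ratio of a library's genes. The fit was tested on simulated data.

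Genes named are the 12 higher and 12 lower of smallest p without overlap of libraries and with a mean of at least 5 in the higher group, leaving out gene models, plus the 2 of largest difference in each list, Hsf1, App and Gm23935. Others were named after their values were seen, as Mir185, Praf2, Snord2, Fth1, Aldh1l2, Egr1, Junb, Jun, Ier3, Cyr61, Ctgf and single members of the ribosomal, respiratory and mitochondrial lists. Members and lists were chosen with earlier results of these data known. Alternatives covered scaling, pseudocount, filter, moderation, library weights, the fit of 14 libraries, a replicate block and each library left out. Some genes are not reported here.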

Additional observations from a re-analysis of the deposited data

Results flagged for a closer look

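In groups of 4 libraries, the highest or lowest library was set against the others on log2(scaled TPM + 1) by Dixon's gap test at 95%, for which chance flags about 1 in 20 groups. Of 164 groups, from 82 genes taken by the naming rule or after their values were seen, 20 were flagged. In 18 of them reverse replicate 4 stood above the other 3 reverse libraries, and it did so with the other genes of the same lists, so these flags are not independent. Its values in scaled TPM, beside the range of the other 3, were 60.8 for Fosb (4.50 to 5.61), 303 for Junb (19.97 to 27.4), 230 for Nr4a1 (2.15 to 3.13), 356 for Egr1 (28.4 to 42.8), 124 for Egr3 (0.447 to 1.76) and 353 for Ier3 (34.1 to 41.6). They were 133 for Dusp5 (2.21 to 3.82), 27.0 for Dusp4 (1.80 to 2.73), 2114 for Thbs1 (200 to 243), 2432 for Cyr61 (154 to 179) and 810 for Ctgf (35.8 to 41.9). They were 105 for Chac1 (16.0 to 16.8), 481 for Plk2 (130 to 140), 158 for Cdkn1a (38.3 to 47.2), 400 for Hmox1 (53.4 to 67.0), 153 for Vegfa (9.30 to 14.9), 76.8 for Lamb1 (34.8 to 36.4) and 74.0 for Bcl2l1 (29.7 to 30.6). No Aβ42 library was flagged in these genes, since 2 of the 4 Aβ42 libraries were high and 2 low. Reverse replicate 4 was also the deepest of the 8 libraries, at a relative depth of 2.599, and the part of depth in these values was not tested.

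Mir1191b was at 1.84 in reverse replicate 2, below the 4.62 to 5.32 of the other 3 reverse libraries. Gm23935 was at 128769 in reverse replicate 1, above 93254 to 94699 in the other 3.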

How the results depend on the processing

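The count of 0 genes between the peptides under scramble also came from TPM as deposited, quantile and upper quartile scaling, pseudocounts of 0.1 and 5, no filter or a minimum mean of 5, library weights, the fit of 14 libraries, a term for the 3 libraries that stood apart, and each library left out. In these fits 407 to 3406 genes were under an unadjusted p of 0.05, the most with library weights. limma without trend and robust moderation called 1 gene (Mir185, adjusted p = 0.0448), and the 5 libraries, an alternative chosen after seeing the data, called 2 (Praf2 and Snord2). Mir185 passed the filter on mean TPM only through the Aβ42 libraries, so that call is no support for a difference. The interaction gave 0 genes in the main fit, 4379 with TPM as deposited (4369 of them higher, where the median of all genes was 0.676), 11 with library weights, 0 to 3 with 1 of the 8 scramble libraries left out and 4 with the 11 libraries left when the 3 were dropped. The cause of these differences was not tested.

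Whether the replicate numbers pair the libraries could not be decided from the values. The correlation of deviations between same-numbered libraries was 0.228, 0.241, -0.211 and 0.567 for numbers 1 to 4, and not every library correlated best with its own number. The signs followed the 3 libraries that stood apart, which can hide a pairing. With the replicate block, 0 genes were called between the peptides (993 under an unadjusted p of 0.05) and 0 for the interaction (1146 under it). The smallest adjusted p between the peptides by limma with this block was 0.105.

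Of 82 genes taken by the naming rule or after their values were seen, 63 kept the sign of their difference throughout. Many of the 82 were chosen because the libraries of the peptides do not overlap. Without a change of scaling, the sign of such genes cannot turn when libraries are left out or weighted, or the pseudocount is changed. The count of 63 is thus partly set by the selection and does not measure stability to processing. With the 5 libraries the sign turned for Fosb (-0.375), Fos (-0.402), Nr4a1 (-0.634), Dusp4 (-0.206), Thbs1 (-0.206), Chac1 (-0.219), Plk2 (-0.256), Hmox1 (-0.214), Lif (-0.437), Ccnd1 (-0.0385), Cyr61 (-0.273), Ctgf (-0.502), Egr1 (-0.357), Junb (-0.214), Ier3 (-0.594) and Jun (-0.103). With a term for the 3 libraries it turned for Fos (-0.138), Nr4a1 (-0.397), Egr3 (-0.501), Chac1 (-0.129), Plk2 (-0.0231), Hmox1 (-0.227), Lif (-0.265), Cyr61 (-0.254), Ctgf (-0.271), Egr1 (-0.41), Junb (-0.226) and Ier3 (-0.509). With 1 library left out the values ran from -0.0451 to 1.47 for Fos, from -0.031 to 2.4 for Egr3, from -0.0538 to 1.12 for Hmox1, from -0.153 to 1.23 for Egr1, from -0.267 to 1.14 for Ier3. Ulk1 turned with library weights (-0.0136) and Gm23935 with quantile scaling (0.255). Without counts, the depth behind a single gene is known only as relative depth and mean coverage, which limits the values of hairpins and other short genes most.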
